A study of Mus musculus with 4 samples.

Results

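The genes of nucleotide excision repair and of DNA double-strand break repair were followed in the hippocampus of mice that lack the DNA glycosylases Ogg1, Mutyh or both. The set held 40 genes, chosen by symbol, of 18492 genes listed in any library. All 40 were listed in each of the 4 libraries, and 18 belonged to excision repair and 22 to break repair. All mice were C57BL/6, 6 months old, and each genotype gave 1 library: Ogg1-/- (Ogg1 KO), Mutyh-/- (Mutyh KO), loss of both genes (DKO, whose genotype label reads Ogg-/- Mutyh-/-) and wild type (WT). The labels do not say how each allele was made, what sex the animals were or whether RNA of several was pooled. The 4 names stand below for the libraries labelled with those genotypes. With 1 library per genotype no difference had a replicate check, so each comparison sets libraries side by side and no p-value was computed.

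Ogg1 removes 8-oxoguanine paired with cytosine and Mutyh removes adenine paired with 8-oxoguanine, both as first steps of base excision repair. Nucleotide excision repair is a separate route for bulky, helix-distorting damage. Its global branch scans the genome with the Xpc and Ddb complexes, and its transcription-coupled branch starts where RNA polymerase has stalled. Both lead to opening of the helix by TFIIH, cutting on either side of the damage and filling of the gap. Double-strand breaks are sensed by the Mre11a, Rad50 and Nbn complex and signalled by the kinases Atm and Atr. They are then closed by recombination with a sister chromatid, which needs a cycling cell, or by end joining, the main route in cells that no longer divide, such as neurons.

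In units of 1000000 reads, the depth of Ogg1 KO was 17.02, of Mutyh KO 17.15, of DKO 18.20 and of WT 18.12. Total reads of Ogg1 were 130, 81, 103 and 94 in the same order and thus were not lower in the libraries labelled Ogg1-null, but reads covered only 47.2% and 46.4% of the gene in Ogg1 KO and DKO, against 81.5% in Mutyh KO and 86.7% in WT. Mutyh had 15 and 20 reads in Mutyh KO and DKO, against 35 in Ogg1 KO and 39 in WT. All 8 markers of hippocampal neurons had reads in every library, together 989, 1005, 1077 and 1086 RPM (reads scaled to a library of 1000000) in Ogg1 KO, Mutyh KO, DKO and WT. The summed markers of choroid plexus, an epithelium that borders the hippocampus, were 5113, 5279, 2655 and 565 RPM, with all 16 markers above 0 in each library. Meningeal markers summed to 560, 759, 554 and 264 RPM and blood markers to 73.4, 126, 57.3 and 36.5. Liver and heart muscle markers were lowest in Ogg1 KO, at 10.5 and 5.40 RPM, against at least 57.3 and 29.5 in the other libraries. Xist, the X-inactivation RNA of female cells, had 23, 10307, 29 and 14 reads in Ogg1 KO, Mutyh KO, DKO and WT, and the Y-linked Ddx3y had 724, 289, 884 and 816, so the Mutyh KO library holds reads of both. In bulk tissue, fewer cells of a type and less RNA per cell cannot be told apart.

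In this choice of genes, the 18 excision genes were level between libraries and the 22 break repair genes were slightly higher in both single knockouts. Levels are given in RPKM, reads per kilobase of gene length in a library scaled to 1000000 reads. Reads of the 18 excision genes summed to 844, 848, 855 and 854 RPM in Ogg1 KO, Mutyh KO, DKO and WT. Rad23b and Ddb1 gave much of that sum, with 4025 and 3994 of 14364 reads in Ogg1 KO and 4543 and 4517 of 15480 in WT. Reads of the 22 break repair genes summed to 466, 471, 445 and 426 RPM, which were highest in the single knockouts and lowest in WT. The median excision gene had a mean of 7.39 RPKM over the 4 libraries and the median break repair gene 3.62 RPKM, beside 9.97 RPKM over 13186 genes with a mean of at least 1 RPKM. All 18 excision genes passed that filter, and 17 of the 22 break repair genes did. Chek1, Brca1, Brca2, Palb2 and Rad54l lay under it. Outside this choice of genes the contrast was not repeated. In Ogg1 KO and Mutyh KO, 24 other excision genes had median log2 ratios of RPKM + 1 to WT of 0.10 and 0.07. For 27 other break repair genes these medians were -0.00 and 0.02.

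Few of these genes differed by much. A gene was counted as different where the ratio of its values, after adding 1 RPKM to each, reached 1.5-fold in either direction. In Ogg1 KO against WT 0 of 35 genes reached it, where 2.23% of all genes compared did. In Mutyh KO against WT 0 of 35 reached it (2.48% of all genes), and in DKO against WT 1 of 35 did, Xpa (2.01% of all genes). The counts were 0 of 35 for DKO against Ogg1 KO and 0 of 35 for DKO against Mutyh KO, beside 1.59% and 1.35% of all genes. With backgrounds this low, about 1 gene or none would be the count at the rate of all genes, so these counts set the repair genes apart from other genes in no comparison.

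Smaller differences were read against counting error. A fold below divides a gene's share of the reads in a library by its share in the other, and the exact conditional 95% interval in parentheses covers counting error only. Of all 40 genes, the interval excluded 1 for 18 in Ogg1 KO against WT, for 14 in Mutyh KO against WT and for 7 in DKO against WT. Among the 15729 genes with at least 20 reads the shares were 33.7%, 32.8% and 30.1%. In excision repair the genes above WT were 6, 3 and 3 of 18 in Ogg1 KO, Mutyh KO and DKO, and those below were 3, 1 and 1. In break repair the genes above WT were 8, 9 and 3 of 22, and those below were 1, 1 and 0. Of all genes tested this way, 19.4%, 18.8% and 15.3% were above WT and 14.4%, 14.0% and 14.8% were below. The 3 comparisons share the WT library.

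**Figure D1:**
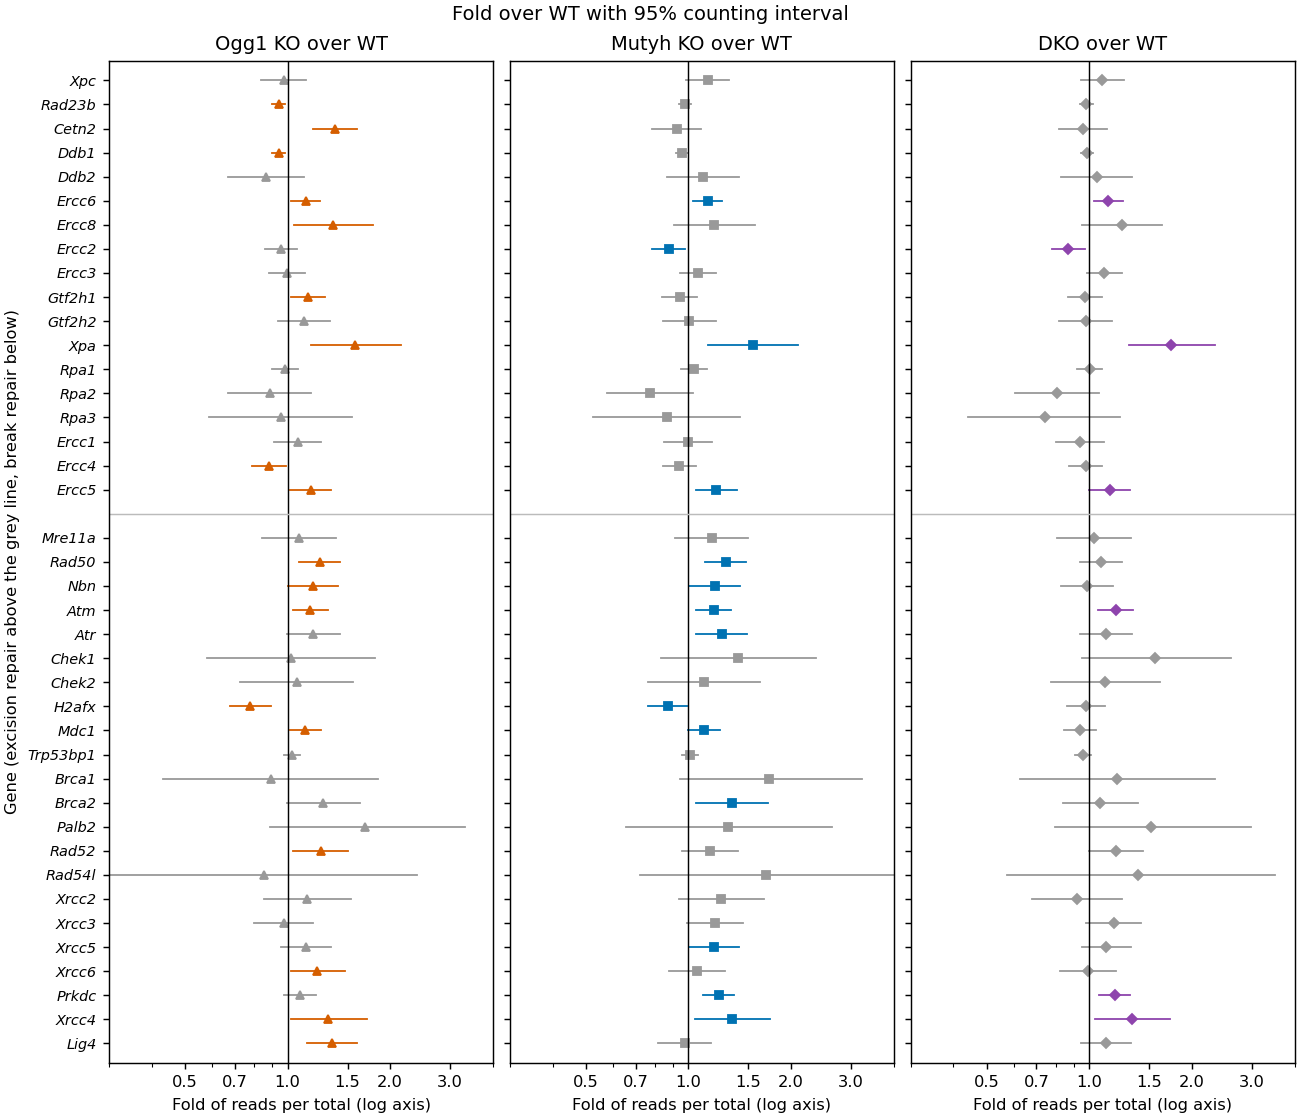
Fold of reads per library total over WT for the 40 genes (log axis), with Ogg1 KO, Mutyh KO and DKO in separate panels. Points are single libraries over the WT library, bars are 95% counting intervals, and intervals that include 1 are grey. Xpa lies right of 1 in all 3 panels, and coloured break repair genes are 9, 10 and 3 of 22 from left to right.

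Among the genes that recognise damage, the abundant members hardly differed and Cetn2 stood apart in Ogg1 KO. Rad23b, which stabilises Xpc, had 61.8, 64.1, 64.3 and 65.5 RPKM in Ogg1 KO, Mutyh KO, DKO and WT and was the most abundant gene of the set. Ddb1, the scaffold of the damage-binding ubiquitin ligase, had 56.2, 57.3, 58.9 and 59.8 RPKM. Both were lowest in Ogg1 KO and highest in WT, but the libraries differed by no more than 1.06 times. Their folds in Ogg1 KO were 0.943 (0.904 to 0.984) and 0.941 (0.902 to 0.982), small differences, resolved from counting error by 3994 to 4543 reads per library.

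Xpc, which binds the distorted helix, had 333, 392, 399 and 364 reads, or 5.38, 6.29, 6.03 and 5.53 RPKM. Ddb2, which binds ultraviolet lesions, had 3.41, 4.35, 4.16 and 3.95 RPKM in the same order. Each was lowest in Ogg1 KO, and no interval against WT excluded 1 for either gene. Within a library Rad23b was 11.5, 10.2, 10.7 and 11.9 times as abundant as Xpc per length, and Ddb1 was 16.5, 13.2, 14.2 and 15.1 times as abundant as Ddb2. The binding subunit was thus the scarcer partner in all 4 libraries for both complexes.

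Cetn2, a centrin that is part of the Xpc complex and also of centrosomes, had 400 reads in Ogg1 KO, 270 in Mutyh KO, 297 in DKO and 309 in WT. These are 19.8 RPKM in Ogg1 KO and 13.3, 13.8 and 14.4 RPKM in the others. Ogg1 KO stood alone on the high side, at 1.38-fold over WT (1.18 to 1.60), and DKO was 0.694-fold of Ogg1 KO (0.596 to 0.809). Its index of dispersion, the variance of its reads over the libraries relative to that of counting error alone, was 12.3. This was the highest of the 40 genes, beside a median of 2.90 over all genes compared. Cetn2 lies on the X chromosome beside Nsdhl, a sterol synthesis gene that starts within 1 kb on the other strand. Nsdhl had 12.1, 9.41, 9.73 and 8.71 RPKM and was also highest in Ogg1 KO, at 1.39-fold over WT (1.21 to 1.60).

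The promoters of a gene that stayed level and of the gene with the widest difference from WT are shown to compare what they hold. Each window is the 250 bases before the annotated start, from RefSeq on build GRCm38.p6, written 5′ to 3′ on the gene's strand. Capitals mark the letters of motifs found on either strand, the GC box (GGGCGG), the CCAAT box (CCAAT), the TATA box (TATAAA), E2F letters (TTTCCCGC or TTTGGCGC), ETS letters (CCGGAAGT) and CRE letters (TGACGTCA).
Rad23b, chr4:55349792-55350041, plus strand: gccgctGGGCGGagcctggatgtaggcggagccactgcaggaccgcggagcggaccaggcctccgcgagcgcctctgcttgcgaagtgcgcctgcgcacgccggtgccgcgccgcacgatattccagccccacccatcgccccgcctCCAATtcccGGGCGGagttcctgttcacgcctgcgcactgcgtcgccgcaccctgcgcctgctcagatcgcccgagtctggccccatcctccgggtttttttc
Xpa, chr4:46196312-46196561, minus strand: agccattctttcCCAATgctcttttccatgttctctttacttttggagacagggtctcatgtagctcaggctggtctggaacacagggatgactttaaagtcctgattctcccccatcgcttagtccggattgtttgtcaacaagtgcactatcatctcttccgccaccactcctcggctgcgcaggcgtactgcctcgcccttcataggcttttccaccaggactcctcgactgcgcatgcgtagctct
The Rad23b window is 70.8% G and C and holds 2 GC boxes and 1 CCAAT. The Xpa window is 52% G and C and holds 1 CCAAT and 0 GC boxes. Of the 32 genes of the set found in the promoter table, 22 hold a GC box (68.8%, against 35.4% of 27025 genes) and 18 hold CCAAT (56.2% against 37.5%). The median window of these 32 is 58.6% G and C, against 52.4% over all genes. TATAAA was found in 1 of 32, Brca2, against 14.3% of all genes. The shares of all genes, here and for the E2F letters below, are over the whole promoter table, expressed or not. No share over expressed genes was computed, so the gaps are not read as a trait of repair genes.

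**Figure D2:**
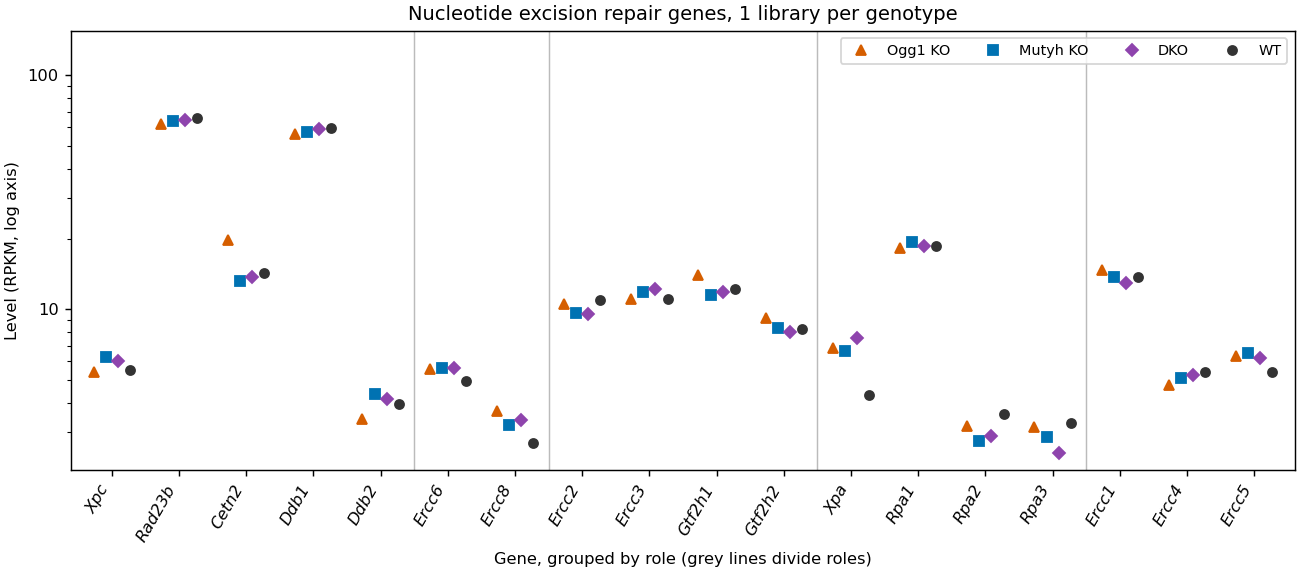
Level of the 18 excision repair genes in RPKM (log axis) in Ogg1 KO, Mutyh KO, DKO and WT, 1 library each, grouped by role between grey lines. Most genes have 4 points close together, while Xpa has its WT point alone below and Cetn2 its Ogg1 KO point alone above.

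Of the genes that respond to stalled transcription, Ercc6 and Ercc8 were lowest in WT. Ercc6, the CSB protein that binds the stalled polymerase, had 800, 812, 862 and 754 reads, or 5.58, 5.62 and 5.62 RPKM in Ogg1 KO, Mutyh KO and DKO against 4.94 in WT. Its folds were 1.13 (1.02 to 1.249), 1.14 (1.03 to 1.26) and 1.14 (1.03 to 1.26). Ercc8, the CSA protein that recruits a ubiquitin ligase there, had 132, 116, 129 and 103 reads. All 3 knockout libraries lay above WT, and the interval excluded 1 in Ogg1 KO alone, at 1.36-fold (1.05 to 1.78).

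Uvssa, a partner of Ercc6 at stalled polymerases, was outside the set of 40. It had 428, 544, 593 and 328 reads, or 3.42, 4.32, 4.44 and 2.47 RPKM in Ogg1 KO, Mutyh KO, DKO and WT. It was lowest in WT as well, and it was the single gene among 24 other excision genes compared that passed 1.5-fold, in Mutyh KO and in DKO against WT. The 24 did not all share this order, and 17, 18 and 12 of them lay above WT in Ogg1 KO, Mutyh KO and DKO. Xab2, for example, was lowest in Ogg1 KO, with 14.0, 15.3, 14.7 and 14.5 RPKM in Ogg1 KO, Mutyh KO, DKO and WT.

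The TFIIH genes differed little and in no common direction. Ercc2, the XPD helicase, had 636, 587, 618 and 708 reads, with 0.876-fold (0.784 to 0.979) in Mutyh KO and 0.869-fold (0.779 to 0.969) in DKO. Ercc3, the XPB translocase, had 504, 544, 598 and 538 reads and no interval that excluded 1. Per length, Ercc3 over Ercc2 gave 1.23 (1.09 to 1.38) for Mutyh KO and 1.28 (1.15 to 1.44) for DKO, against 1.05 (0.934 to 1.18) for Ogg1 KO and 1.01 (0.900 to 1.13) for WT. The interval of this ratio held 1 in Ogg1 KO and WT and lay above 1 in both Mutyh-null libraries. The intervals overlapped between libraries, except those of DKO and WT. About 17.8% of the Ercc2 exon length is overlapped on the other strand by Klc3, which had 41, 22, 19 and 13 reads.

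Gtf2h1, the p62 subunit, had 656, 543, 594 and 608 reads and was highest in Ogg1 KO, at 1.15-fold over WT (1.03 to 1.28). Gtf2h2, the p44 subunit that stimulates Ercc2, had 267, 243, 250 and 255 reads. Its index of dispersion, 0.901, was in the range of counting error. Their ratio within a library was between 1.39 and 1.53.

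Xpa, which verifies the damage and holds the incision complex together, showed the widest difference from WT of the genes that passed 1 RPKM. Its reads numbered 113, 111 and 133 in Ogg1 KO, Mutyh KO and DKO, against 76 in WT, or 6.83, 6.66, 7.52 and 4.32 RPKM. All 3 knockout libraries lay above WT by more than counting error, at 1.58-fold (1.17 to 2.15), 1.54-fold (1.14 to 2.09) and 1.74-fold (1.30 to 2.34). The knockout libraries did not differ from each other beyond it, since DKO was 1.10-fold of Ogg1 KO (0.850 to 1.43) and 1.13-fold of Mutyh KO (0.871 to 1.47). All 3 folds rest on the same 76 reads in WT. Exons of Ncbp1 on the other strand overlap 4.07% of the Xpa exon length, and Ncbp1 was lower in the knockout libraries than in WT, at 0.854, 0.899 and 0.880-fold. The choroid plexus markers were also lowest in WT, and their part in the Xpa values was not tested.

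The RPA trimer coats the opened single strand and serves recombination as well. Rpa1, the large subunit, had 977, 1037, 1064 and 1057 reads, or 18.4, 19.4, 18.7 and 18.7 RPKM. Its index of dispersion, 0.494, was in the range of counting error. Rpa2 had 96, 84, 93 and 115 reads, and Rpa3 had 35, 32, 29 and 39. Both small subunits were highest in WT, yet no interval against WT excluded 1. Per length, Rpa1 was 5.81, 7.05, 6.53 and 5.25 times as abundant as Rpa2, while Rpa2 and Rpa3 were about equal (0.965 to 1.18 times).

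The nucleases that cut out the damaged strand were close to level. Ercc1, the partner of the XPF nuclease, had 311, 292, 292 and 309 reads. Ercc4, the XPF nuclease itself, had 543, 584, 643 and 656 reads and was 0.881-fold of WT in Ogg1 KO (0.785 to 0.989). Ercc5, the XPG nuclease that cuts on the other side, had 430, 447, 451 and 391 reads. It was lowest in WT, and its folds were 1.17 (1.02 to 1.35), 1.21 (1.05 to 1.39) and 1.15 (1.0004 to 1.32). Under TMM scaling, which corrects library totals for their makeup, the interval in DKO held 1 (0.996 to 1.31).

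Across the excision set the median log2 ratio of RPKM + 1 to WT was -0.01, 0.00 and -0.02 in Ogg1 KO, Mutyh KO and DKO, beside 0.02, 0.01 and -0.00 over all genes compared. Of the 18 genes, 8, 9 and 8 lay above WT. The 24 other excision genes compared, among them the gap-filling genes Pcna and Lig1, had medians of 0.10, 0.07 and 0.01. Of the 26 with enough reads, 6, 4 and 5 were above WT beyond counting error and 4, 2 and 3 below.

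Of the sensors of broken ends, Rad50 and Nbn were higher in both single knockouts than in DKO and WT. Rad50, the ATPase that tethers the ends, had 458, 477, 426 and 392 reads in Ogg1 KO, Mutyh KO, DKO and WT, or 5.22, 5.40, 4.54 and 4.20 RPKM. Nbn, the subunit that recruits Atm, had 291, 295, 258 and 261 reads, or 6.86, 6.91, 5.69 and 5.78 RPKM. For both genes the single knockouts lay together on the high side, and DKO and WT lay together below them.

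Rad50 was 1.24-fold of WT in Ogg1 KO (1.08 to 1.43) and 1.29-fold in Mutyh KO (1.12 to 1.47), and DKO was 0.870-fold of Ogg1 KO (0.761 to 0.995) and 0.841-fold of Mutyh KO (0.736 to 0.961). The folds of Nbn were 1.19 (1.0005 to 1.41) and 1.19 (1.01 to 1.42) over WT, and those of DKO were 0.829 (0.698 to 0.984) against Ogg1 KO and 0.824 (0.694 to 0.977) against Mutyh KO. DKO itself was 1.08-fold of WT for Rad50 (0.941 to 1.24) and 0.984-fold for Nbn (0.825 to 1.17). Under TMM scaling the intervals of Nbn over WT held 1, at 0.983 to 1.38 in Ogg1 KO and 0.989 to 1.39 in Mutyh KO, as did that of Rad50 in DKO over Ogg1 KO (0.771 to 1.01). Mre11a, the nuclease of the complex, had 131, 143, 134 and 129 reads, with no interval that excluded 1. Rad50 was 2.06, 1.96, 1.87 and 1.79 times as abundant as Mre11a per length in Ogg1 KO, Mutyh KO, DKO and WT, with intervals that overlapped.

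**Figure D3:**
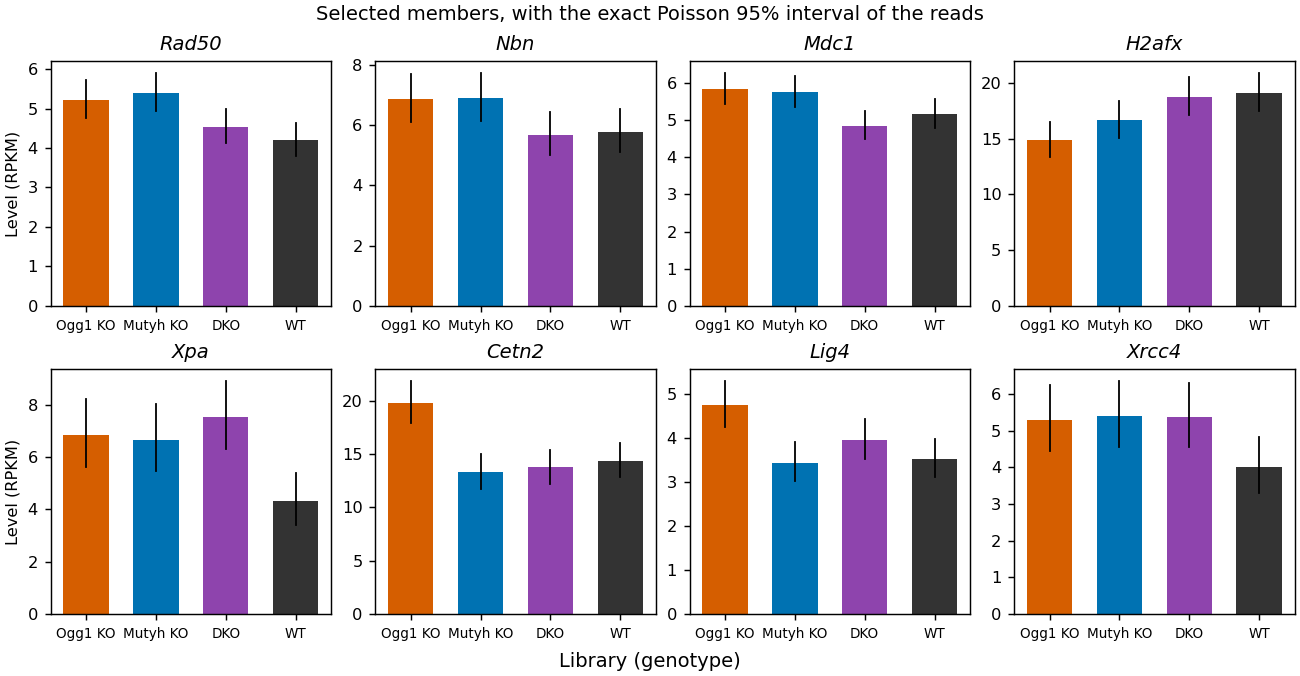
Level in RPKM of 8 genes chosen after their values were seen, in Ogg1 KO, Mutyh KO, DKO and WT (left to right, 1 library each), with the exact Poisson 95% interval of the reads as a line on each bar. Rad50, Nbn and Mdc1 have higher bars in the single knockouts than in DKO and WT, H2afx has lower ones, and Xpa and Xrcc4 have their lowest bar in WT.

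**Figure D4:**
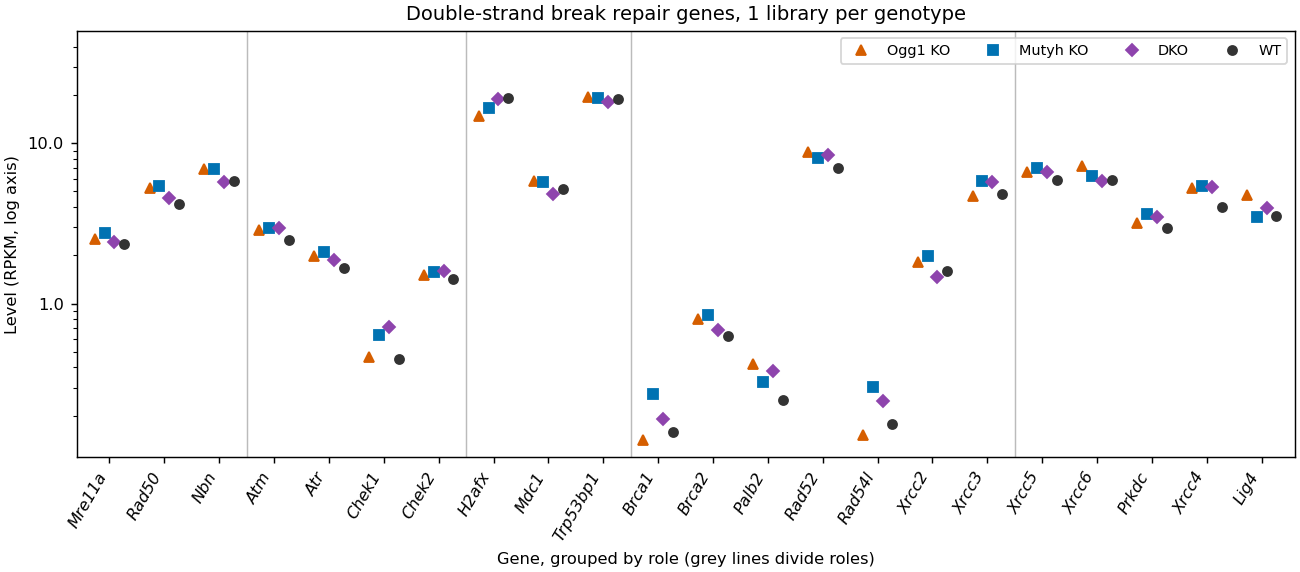
Level of the 22 break repair genes in RPKM (log axis) in Ogg1 KO, Mutyh KO, DKO and WT, 1 library each, grouped by role between grey lines. Brca1, Brca2, Palb2, Rad54l and Chek1 lie under 1 RPKM, while H2afx and Trp53bp1 lie highest, between 14.9 and 19.5 RPKM.

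The kinases were expressed at low levels. Atm, which is activated at breaks, had 589, 604, 645 and 537 reads, or 2.89, 2.94 and 2.96 RPKM in Ogg1 KO, Mutyh KO and DKO against 2.48 in WT. WT was the lowest library, and the folds were 1.17 (1.04 to 1.31), 1.19 (1.06 to 1.34) and 1.20 (1.06 to 1.34). Npat, a histone gene regulator that starts within 1 kb of Atm on the other strand, had folds of 1.18 (1.06 to 1.31), 1.22 (1.09 to 1.35) and 1.17 (1.05 to 1.30). Atm and Npat were thus lowest in WT by a like amount. Among the 14 genes of the set with a coding neighbour of this kind, such pairs did not all go together. Abhd13 starts within 1 kb of Lig4 on the other strand. In Ogg1 KO Abhd13 was 0.852-fold of WT (0.771 to 0.942), where Lig4 was 1.35-fold (1.14 to 1.59).

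Atr, the kinase of stalled forks and resected ends, had 273, 289, 274 and 244 reads, and Mutyh KO was 1.252-fold of WT (1.05 to 1.49). Chek2, a target of Atm, had 58, 61, 65 and 58 reads, with an index of dispersion of 0.155, in the range of counting error. Chek1, a target of Atr known mainly from dividing cells, had 27, 37, 44 and 28 reads, or 0.467, 0.635, 0.712 and 0.455 RPKM. At these depths its folds of 1.03 (0.582 to 1.81), 1.40 (0.832 to 2.37) and 1.56 (0.952 to 2.61) could not be told from 1.

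The chromatin genes around a break differed from WT in opposite directions. H2afx, the histone variant that Atm phosphorylates beside a break, had 358, 403, 482 and 490 reads in the same order, or 14.9, 16.6, 18.7 and 19.1 RPKM. It was lower than WT in both single knockouts, at 0.778-fold (0.677 to 0.893) and 0.869-fold (0.760 to 0.994), and level in DKO, at 0.979-fold (0.862 to 1.11). Mdc1, the mediator that binds the phosphorylated histone, had 732, 727, 651 and 691 reads, or 5.83, 5.75, 4.85 and 5.17 RPKM. It was higher than WT in both single knockouts, at 1.13-fold (1.01 to 1.253) and 1.11-fold (1.0004 to 1.24), and DKO was 0.832-fold of Ogg1 KO (0.747 to 0.926) and 0.843-fold of Mutyh KO (0.758 to 0.939). Under TMM scaling its intervals over WT held 1, at 0.997 to 1.23 in Ogg1 KO and 0.981 to 1.21 in Mutyh KO. Trp53bp1, which shields ends from resection, had the highest mean level of the break repair genes, at 19.5, 19.0, 18.1 and 18.9 RPKM and differed by at most 1.07 times between libraries.

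The promoter of Mdc1 is shown because it holds E2F letters, the motif of a family that drives genes of the dividing cell. Its window was taken and marked as for Rad23b and Xpa.
Mdc1, chr17:35841248-35841497, plus strand: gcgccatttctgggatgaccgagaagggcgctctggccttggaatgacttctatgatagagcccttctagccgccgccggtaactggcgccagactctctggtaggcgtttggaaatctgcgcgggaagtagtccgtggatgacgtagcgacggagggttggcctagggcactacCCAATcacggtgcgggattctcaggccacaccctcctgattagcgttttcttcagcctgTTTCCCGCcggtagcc
E2F letters were found in 4 of 32 windows, those of Brca2, Chek2, Mdc1 and Xrcc6, or 12.5% against 1.51% of all genes. These are 4 of 17 break repair genes and 0 of 15 excision genes. Markers of proliferation summed to 46.1, 47.4, 53.2 and 47.1 RPM in Ogg1 KO, Mutyh KO, DKO and WT, with 15 of 15 above 0 in each library. Only 7 of them had a mean of at least 1 RPKM. Mcm6 alone had 235, 224, 278 and 253 of the 784, 813, 968 and 854 reads. Markers of mitosis were near the floor, such as Cdk1 with 6, 2, 4 and 4 reads and Aurkb with 2, 2, 3 and 3.

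Most of the recombination genes were scarce. Brca1, which promotes resection, had 16, 31, 23 and 19 reads, or 0.141, 0.272, 0.190 and 0.158 RPKM, the lowest level of the set. Palb2, which joins Brca1 to Brca2, had 27, 21, 26 and 17 reads. Rad54l, a DNA translocase of recombination, had 8, 16, 14 and 10 reads, and 15.4% of its exon length is overlapped on the other strand by Lrrc41, which had 813 to 918 reads. No interval for these 3 genes excluded 1.

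Brca2, a mediator of recombination, had 147, 156, 133 and 123 reads, at 1.34-fold of WT in Mutyh KO (1.05 to 1.71). Rad52, an annealing protein that in mammals backs up Brca2, was far more abundant, with 255, 237, 261 and 217 reads or 8.82, 8.14, 8.44 and 7.05 RPKM. It was lowest in WT, and the interval excluded 1 in Ogg1 KO alone, at 1.251-fold (1.04 to 1.51). Xrcc2, which acts early in recombination, had 100, 110, 86 and 93 reads, with DKO at 0.736-fold of Mutyh KO (0.549 to 0.985). Xrcc3, its relative, had 194, 240, 251 and 212 reads, with no interval against WT that excluded 1.

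All 5 end-joining genes were expressed above 2.9 RPKM. Xrcc5 and Xrcc6, the Ku80 and Ku70 subunits that cap the ends, had 6.65, 6.96, 6.58 and 5.86 RPKM and 7.23, 6.27, 5.85 and 5.90 RPKM. The ratio of Xrcc6 to Xrcc5 was 1.09, 0.900, 0.889 and 1.01, each with an interval that held 1. Xrcc5 was above WT beyond counting error in Mutyh KO, at 1.19-fold (1.01 to 1.40, and 0.987 to 1.38 under TMM scaling), and Xrcc6 in Ogg1 KO, at 1.22-fold (1.02 to 1.47).

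Prkdc, the catalytic kinase that Ku recruits, had 689, 785, 805 and 675 reads, or 3.19, 3.61, 3.49 and 2.94 RPKM. It was 1.23-fold of WT in Mutyh KO (1.11 to 1.36) and 1.19-fold in DKO (1.07 to 1.32), and 1.09-fold in Ogg1 KO (0.976 to 1.21). The libraries without Mutyh were thus the high pair. Mcm4, a helicase gene that starts within 1 kb of Prkdc on the other strand, had 203, 260, 226 and 227 reads and was highest in Mutyh KO alone.

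Xrcc4, the scaffold of the ligase, had 140, 144 and 152 reads in Ogg1 KO, Mutyh KO and DKO against 113 in WT, or 5.28, 5.39, 5.36 and 4.01 RPKM. All 3 knockout libraries lay above WT and close to each other, at 1.32-fold (1.02 to 1.70), 1.35-fold (1.05 to 1.74) and 1.34-fold (1.04 to 1.72). Lig4, the ligase itself, had 331, 241, 294 and 261 reads, or 4.76, 3.44, 3.96 and 3.53 RPKM. It was highest in Ogg1 KO, at 1.35-fold (1.14 to 1.59), and 0.976-fold in Mutyh KO (0.816 to 1.17). The products of Xrcc4 and Lig4 work as a complex, and their values were ordered differently over the libraries. Their ratio was 1.11 (0.903 to 1.35), 1.57 (1.27 to 1.93), 1.36 (1.11 to 1.65) and 1.13 (0.902 to 1.42), with intervals that overlapped.

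Across the break repair genes compared, the median log2 ratio of RPKM + 1 to WT was 0.16, 0.18 and 0.09 in Ogg1 KO, Mutyh KO and DKO, beside 0.02, 0.01 and -0.00 over all genes. Above WT lay 15, 15 and 11 of 17 genes, where 54.6%, 53.0% and 49.3% of all genes did. Against the single knockouts the DKO medians were -0.06 for Ogg1 KO and -0.07 for Mutyh KO, beside -0.02 and -0.01 over all genes. The 27 other break repair genes compared did not share the level of the set, with medians to WT of -0.00, 0.02 and 0.05. None of the 27 reached 1.5-fold. Of the 37 found by symbol, all with enough reads, 8, 7 and 4 were above WT beyond counting error and 4, 2 and 1 below. Parp1, the most read of them, had 1758 and 1774 reads in Ogg1 KO and Mutyh KO, 1979 in DKO and 2091 in WT.

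Length and level were set beside these medians. Many break repair genes are long, and all 2307 compared genes of at least 5000 bases had medians to WT of 0.05, 0.05 and 0.05. The 6 break repair genes of that length had medians of 0.15, 0.20 and 0.10, and the 11 shorter ones 0.16, 0.18 and 0.09. The 9447 genes with a mean of 1 to 20 RPKM, a range that holds all 17, had medians of 0.03, 0.04 and 0.02. Choroid plexus markers were likewise highest in the single knockouts and lowest in WT, and their part in the break repair values was not tested.

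Set against the single knockouts, DKO was lower for more break repair genes than it was higher, and all genes leaned the same way. In DKO against Ogg1 KO the interval excluded 1 for 10 of 40 genes (30.4% of all genes), with 6 of 22 break repair genes lower and 1 higher (17.4% and 13.0% of all genes). Of the 18 excision genes, Cetn2 and Gtf2h1 were lower and Ddb1 was higher. In DKO against Mutyh KO it excluded 1 for 4 of 40 genes (21.0% of all genes). All 4 were lower break repair genes, Rad50, Nbn, Mdc1 and Xrcc2 (12.3% of all genes were lower and 8.67% higher). The shares over all 40 genes were thus below the background in both comparisons.

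Loss of 1 glycosylase went with opposite differences on the 2 backgrounds for a few break repair genes. Loss of Ogg1 was read as Ogg1 KO over WT and as DKO over Mutyh KO, and Rad50, Nbn and Mdc1 were higher in the first and lower in the second with both intervals excluding 1. They make 3 of 40 genes, or 3 of 22 in break repair and 0 of 18 in excision repair, where 6.86% of all genes did so. Loss of Mutyh was read as Mutyh KO over WT and as DKO over Ogg1 KO, and gave the same 3 genes and H2afx the other way round, 4 of 40 beside 6.55% of all genes. The counts, 7.5% and 10% of the 40 genes, are near these shares and are no result about the set. Under TMM scaling Rad50 alone remained for loss of Ogg1 (7.08% of all genes), and for loss of Mutyh the intervals of H2afx and Ddb1 excluded 1 in both readings (6.77% of all genes).

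Pairs of libraries that share a genotype were compared by whether their RPKM values overlapped the other pair. The rule uses only the order of the values and takes no account of counting error. It thus also counts genes with no interval against WT that excluded 1, such as Chek2, Xrcc3, Rpa1 and Mre11a. The Ogg1-null pair, Ogg1 KO and DKO, lay clear of Mutyh KO and WT for 4 of 35 genes, Ercc8, Xpa, Rad52 and Lig4, all higher (27.7% of all genes lay clear and 13.3% lay higher). The Mutyh-null pair, Mutyh KO and DKO, lay clear of Ogg1 KO and WT for 16 of 35 (37.9%), made up of 11 of 18 excision genes and 5 of 17 break repair genes. The 11 were split (18.3% of all genes lay higher and 19.6% lower), with Xpc, Ddb2, Ercc6, Ercc3 and Rpa1 higher and Cetn2, Ercc2, Gtf2h1, Rpa2, Rpa3 and Ercc1 lower. The 5 break repair genes, Atm, Chek2, Xrcc3, Prkdc and Xrcc4, were all higher. A pairing added after the values were seen, the single knockouts against DKO and WT, lay clear for 15 of 35 (34.4%). Of 17 break repair genes it lay higher for 9 (20.4% of all genes), namely Mre11a, Rad50, Nbn, Atr, Mdc1, Trp53bp1, Xrcc2, Xrcc5 and Xrcc6.

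The share of each gene covered by reads added a readout that the choice of genes did not use. Atm was covered over 67.0%, 67.3% and 73.7% of its 11964 bases in Ogg1 KO, Mutyh KO and DKO, against 52.9% in WT. Prkdc was covered over 65.5%, 66.7% and 66.5% of 12674 bases, against 54.7% in WT. Brca2 was covered over 35.8%, 35.3% and 30.1% of 10743 bases, against 23.1% in WT. The 3 longest genes of the set were thus covered least in WT, the library with the fewest reads of each.

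Atr, of 8074 bases, did not share that order, with 57.4%, 58.1%, 66.3% and 63.6% in Ogg1 KO, Mutyh KO, DKO and WT. Over the 40 genes the median difference in covered share from WT was -0.02, 0.59 and 2.44 percentage points. Over all genes compared it was -0.21, -0.07 and 0.16 points, and over those with a median coverage under 80% it was -0.22, 0.87 and 1.54.

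**Figure D5:**
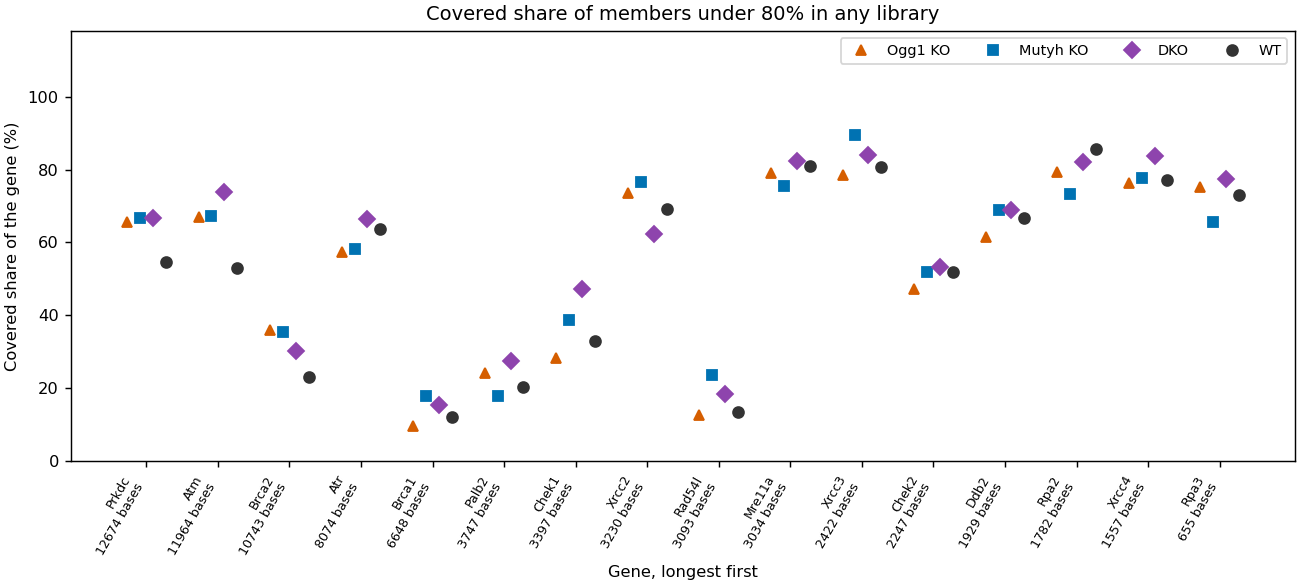
Share of the gene's length covered by reads (percent), for the 16 genes with under 80% in any library, longest gene at the left, in Ogg1 KO, Mutyh KO, DKO and WT. The WT points of Prkdc, Atm and Brca2 lie below the other 3, while for Atr the single knockouts lie lowest.

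Reads from neighbouring genes could enter some of these counts, since the sources used here do not say whether strand was kept. By the GENCODE M21 annotation, 11 of the 40 genes have exons overlapped by exons of a coding gene on the other strand, 4 of them over more than 10% of their exon length. These are Ddb2 with Acp2 (23.8%), Ercc2 with Klc3 (17.8%), Rad54l with Lrrc41 (15.4%) and Trp53bp1 with Tubgcp4 (15.0%). Acp2 had 1409, 1720, 1759 and 1704 reads, against 112, 144, 146 and 138 of Ddb2, and both genes were lowest in Ogg1 KO, at 0.880-fold (0.819 to 0.945) and 0.864-fold of WT (0.667 to 1.12). The reads of these pairs could not be told apart.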

How the data were processed

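RNA from the hippocampus was sequenced in 1 library per genotype, and how many animals gave each sample was not stated. Total RNA was extracted with an RNeasy kit and made into libraries by a standard Illumina protocol, per the labels' protocols. Per the submitters' processing notes the build was mm9. The aligner, counting program, annotation and strandedness are not given in the sources used here. The deposited tables give, per the file headers, a count of unique reads per gene, the authors' RPKM, the gene length and the percent of the length covered. RPKM recomputed from the deposited counts, lengths and header totals matched the authors' values, and each total was the sum of the listed reads. Genes not listed were taken as 0.

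Folds are ratios of reads per library total with exact conditional 95% intervals (scipy 1.17.1), computed here. Intervals cover counting error only, and reads carry no molecular identifiers. Log2 ratios use RPKM plus a pseudocount of 1, over 13186 genes with a mean of at least 1 RPKM, which understates differences of weak genes. Spread beyond counting error is the index of dispersion of the 4 counts, a ratio of variances that is near 1 under counting error alone. Scaling alternatives used TMM factors (edgeR 4.0.16) and median-of-ratios size factors, and no count model was fitted. The calculation was tested on simulated reads with counting error only. That test cannot show how the intervals behave on libraries that differ by more than counting error, as these do. Neighbours came from GENCODE M21 and promoter windows from RefSeq, both on GRCm38. Of 40 genes, 32 had a window. All 40 genes are described, and other pathway genes are named where they passed 1.5-fold, with a few more chosen after their values were seen. The genes, lists and tests were chosen with earlier results of these data known.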

Additional observations from a re-analysis of the deposited data

Results flagged for a closer look

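Loss of the same glycosylase went with differences in opposite directions on the 2 backgrounds for 4 break repair genes. They are 3 of 40 genes for loss of Ogg1 (6.86% of all genes) and 4 of 40 for loss of Mutyh (6.55%), shares near those of all genes. In each case both counting intervals excluded 1 on library totals. Under TMM scaling those of Nbn and Mdc1 over WT and of Rad50 in DKO over Ogg1 KO held 1, leaving Rad50 for loss of Ogg1 and H2afx, with Ddb1 added, for loss of Mutyh. With 1 library per genotype the difference between backgrounds was not tested. Both readings use the same 4 libraries, so they are not separate evidence.

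Rad50 was 1.24-fold in Ogg1 KO over WT and 0.841-fold in DKO over Mutyh KO for loss of Ogg1, and 1.29-fold in Mutyh KO over WT and 0.87-fold in DKO over Ogg1 KO for loss of Mutyh. Nbn was 1.19-fold and 0.824-fold for loss of Ogg1, and 1.19-fold and 0.829-fold for loss of Mutyh. Mdc1 was 1.13-fold and 0.843-fold for loss of Ogg1, and 1.11-fold and 0.832-fold for loss of Mutyh. H2afx ran the other way for loss of Mutyh, at 0.869-fold in Mutyh KO over WT and 1.26-fold in DKO over Ogg1 KO. Choroid plexus markers summed to 5113 and 5279 RPM in Ogg1 KO and Mutyh KO, 2655 in DKO and 565 in WT, and their part in these values was not tested.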

How the results depend on the processing

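With 1 library per genotype no replicate could be left out. No paired analysis was possible because each genotype has 1 library and the labels carry no replicate numbers that pair libraries. Counts past the fold among the 35 genes with a mean of at least 1 RPKM were small and moved with the threshold. With the threshold lowered from a log2 ratio of 0.58 to 0.32 they were 6 for Ogg1 KO against WT, 2 for Mutyh KO against WT, 2 for DKO against WT and 1 for DKO against Ogg1 KO, beside 10.4%, 10.2%, 8.42% and 8.53% of all genes. At 2-fold the count in DKO against WT was 0 in place of 1. With a pseudocount of 0.1 RPKM the counts were 1 in Ogg1 KO and 1 in Mutyh KO against WT in place of 0, which is Xpa in both.

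Over all genes the main counts were 294, 327, 265, 210 and 178 for the comparisons with WT (Ogg1 KO, Mutyh KO, then DKO) and for DKO against Ogg1 KO and Mutyh KO. With the smaller pseudocount they were 577, 649, 515, 423 and 345, at the lower threshold 1377, 1340, 1110, 1125 and 707, and at 2-fold 101, 110, 78, 51 and 40. Without the filter on low values they were 444 in Ogg1 KO against WT, 352 in DKO against Ogg1 KO and 281 in DKO against Mutyh KO.

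Under TMM factors, size factors, or totals without ribosomal RNA and choroid plexus genes, the largest change among 600 recomputed folds was 2.384%. Each alternative multiplies all folds of a comparison by the same factor. Shifts this small had to leave all 600 within their counting interval, and 0 changed sign among those with an interval excluding 1. Some intervals near 1 crossed it. Under TMM those of Nbn and Mdc1 in both single knockouts over WT, Xrcc5 in Mutyh KO and Ercc5 in DKO over WT and Rad50 in DKO over Ogg1 KO came to hold 1, and those of Ddb1 in Mutyh KO over WT and Rad23b and Xrcc3 in DKO over Ogg1 KO came to exclude it. Size factors moved the same 10 and 4 more, with Xrcc2 in DKO over Mutyh KO lost. Totals without ribosomal RNA and choroid plexus genes lost H2afx in Mutyh KO over WT and Rad50 in DKO over Ogg1 KO, and gained 4. TMM shifted the median of all genes by at most 0.024 in log2. Leaving out the 4 genes overlapped over more than 10%, an alternative chosen after seeing the data, gave a median of 0.04 in place of -0.01 for the excision genes in Ogg1 KO against WT. The pairing of single knockouts lay clear for 12 in place of 15 of 35 genes under TMM. On library totals 34.4% of all genes lay clear. No share of all genes under TMM is given here, so the 12 are not read as a result about the set. Depth limits Chek1, Brca1, Palb2, Rad54l and Rpa3, with 8 to 44 reads per library.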
